A study of Drosophila melanogaster with 2 samples.

Results

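Small nucleolar RNA (snoRNA) genes of the fly and the genes that carry them were examined for peaks of CG7987 ChIP-seq (chromatin immunoprecipitation with sequencing) in whole embryos. Members were chosen from the annotation and not from the peaks. They were all 269 genes of biotype snoRNA among 18164 genes on the 6 chromosome arms, and each gene whose span contains a snoRNA gene on the same strand, its host. A host was found for 247 snoRNA genes and none for 22. The hosts were 92 genes, of which 28 encode ribosomal proteins, 54 are other protein-coding genes and 10 are noncoding. Where a snoRNA lay inside 2 genes, which happened for 12, the shorter gene was taken as the host.

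The 2 biological replicates form 1 group without a comparison group of another genotype or treatment. Both were embryos of mixed sex, collected over 0 to 24 h from a transgenic line that stably expresses CG7987 with GFP at its C-terminal end, and chromatin was sheared by sonication. The whole organism was used, so the tissues that contribute a peak are not known. The labels disagree on the libraries: the antibody and assay labels name ChIP of CG7987, but their free text describes an input control. They were treated as ChIP, and which of them holds was not tested. The main list is that kept by the irreproducible discovery rate (IDR) procedure, which keeps peaks that rank alike in replicates. It held 4410 peaks, the strongest 4410 of a pooled candidate list of 30000, whose weaker entries may be background. Signal is the authors' strength of a peak, without a stated scale, and ran from 139 to 11622 in the IDR list with a median of 201. At CG7987 itself the pooled list held a candidate of signal 106 at rank 6757, below the IDR list.

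snoRNAs are short nucleolar RNAs that guide chemical changes of ribosomal RNA. Box C/D snoRNAs guide 2′-O-methylation with the methyltransferase fibrillarin, and box H/ACA snoRNAs guide pseudouridylation with the pseudouridine synthase Nop60B, called dyskerin in humans. In flies most lie in introns, are cut out of the host transcript after splicing and depend on the host's promoter, while U3, which takes part in cutting the precursor of ribosomal RNA, is transcribed from its own promoter. Many hosts encode ribosomal proteins, and others, the Uhg genes (U snoRNA host genes), make a spliced RNA with no known protein.

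Promoters of some bound hosts with high signal and 2 of the RNAs that hosts carry are shown to place the summits discussed below on sequence. All are from the RefSeq genome in dm6 coordinates, on the strand of the gene. Each promoter runs over 120 bases, with the annotated transcription start site (TSS) of the gene at base 101. They are a selection from the bound hosts with high signal whose window holds at most 30 bases of UTR. All of them encode ribosomal proteins. Some bound hosts with higher signal, the strongest host of all among them, are not shown. The promoters lie at chr3L:8600906-8601025 (RpL14, plus strand), chr3R:5624374-5624493 (RpL13A, plus strand), chr3L:3222941-3223060 (RpL28, minus strand) and chr4:67188-67307 (RpS3A, minus strand). Capitals mark matches to TATCGATA and CGATA on either strand, and to TCTTT on the gene strand within 10 bp of the TSS. In RpL14 a further TCTTT that begins within 10 bp of the TSS but ends beyond it is left in lower case.
RpL14: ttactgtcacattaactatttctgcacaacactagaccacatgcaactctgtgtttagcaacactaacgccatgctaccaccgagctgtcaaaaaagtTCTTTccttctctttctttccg
RpL13A: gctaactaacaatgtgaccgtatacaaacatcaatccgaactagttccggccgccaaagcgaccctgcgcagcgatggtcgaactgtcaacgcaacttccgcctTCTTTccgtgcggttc
RpL28: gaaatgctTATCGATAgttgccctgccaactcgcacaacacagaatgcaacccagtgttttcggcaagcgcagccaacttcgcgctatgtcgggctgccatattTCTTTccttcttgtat
RpS3A: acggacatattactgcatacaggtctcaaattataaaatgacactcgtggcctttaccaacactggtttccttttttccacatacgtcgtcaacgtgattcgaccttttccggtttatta
The IDR summit lay 16 bp upstream of the TSS of RpL14, 48 bp upstream for RpL13A, 42 bp upstream for RpL28 and at 0 bp for RpS3A. snoRNA:U49:66Da lies in an intron of RpL14 at chr3L:8601473-8601552 on the plus strand, 467 bp past the TSS, and is an RNA of 80 bases in which capitals mark TGATGA and the last CTGA, the box C and box D letters.
snoRNA:U49:66Da: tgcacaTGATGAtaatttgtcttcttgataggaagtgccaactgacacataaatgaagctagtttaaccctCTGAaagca
snoRNA:Psi18S-920, a pseudouridylation guide by its name, lies in intron 1 of RpL10Ab at chr3L:11822984-11823124 on the plus strand, 133 bp past the TSS. Capitals mark the last ACA, which ends 3 bases before the end of the RNA.
snoRNA:Psi18S-920: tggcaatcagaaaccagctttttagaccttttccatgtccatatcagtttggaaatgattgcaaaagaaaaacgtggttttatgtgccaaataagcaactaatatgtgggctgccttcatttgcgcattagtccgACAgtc

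Peaks sat at the start sites of hosts far more often than at the snoRNAs inside them. A gene is called bound where an IDR summit lay within 500 bp of any of its TSSs. Bound hosts numbered 52 of 92 (56.5%, exact 95% interval 45.8 to 66.8), against 17.2% of all genes and 20.5% of protein-coding genes. Counted over RNAs, 174 of 269 snoRNA genes (64.7%, 58.6 to 70.4) lay in a bound host. An IDR summit within 500 bp of the snoRNA itself was found for 23 of 269 (8.55%, 5.50 to 12.6), against 10% of tRNA genes, short noncoding genes that were counted in the same way. In the pooled list 80 of 92 hosts (87.0%, 78.3 to 93.1) had a candidate at a TSS, against 49.5% of all genes and 55.4% of protein-coding genes. Candidates within 500 bp of the snoRNA itself were found for 81 of 269 (30.1%, 24.7 to 36.0), against 62.4% of tRNA genes. Intervals cover counting error over genes only, and hosts and snoRNAs that share a summit are not independent.

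**Figure D1:**
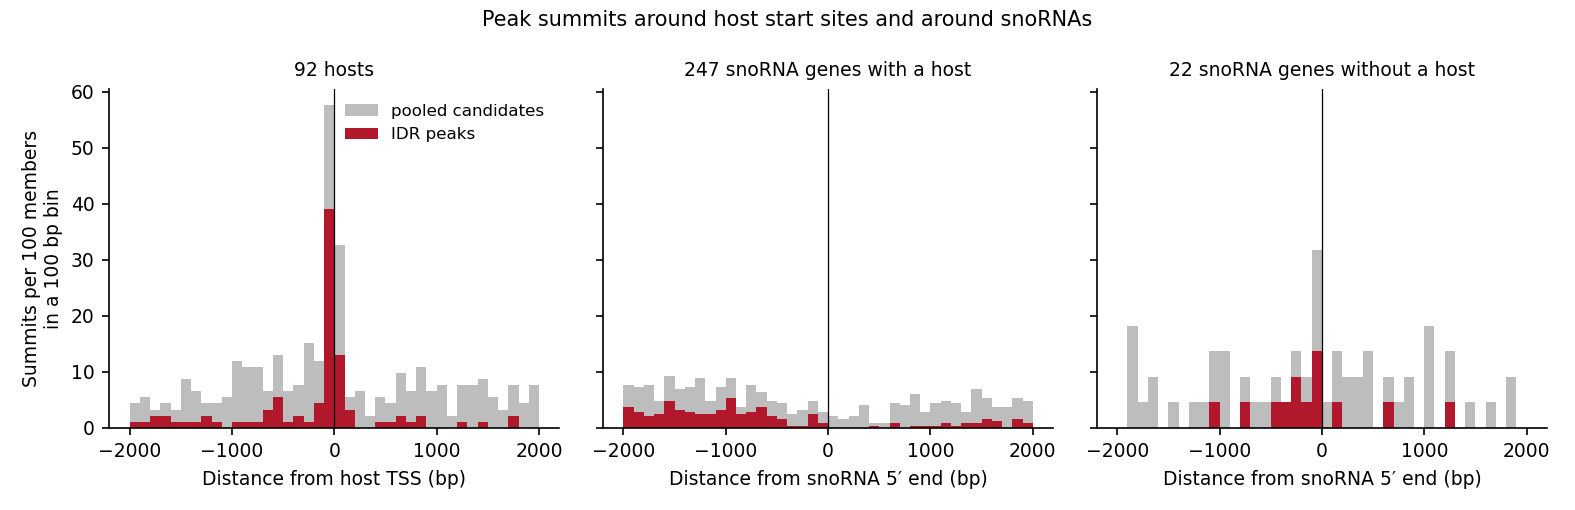
Peak summits per 100 members (y axis) in bins of 100 bp by distance in bp along the gene's strand (x axis), around the nearest TSS of 92 hosts, the 5′ end of 247 snoRNA genes with a host and the 5′ end of 22 without one. Red shows IDR summits and grey all pooled candidates, which include them. The hosts have 36 IDR summits in the 100 bp before the TSS and 12 in the 100 bp after it, snoRNA genes with a host have no peak of summits at their 5′ end, and those without a host have 3 IDR summits in the 100 bp before it.

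Most of the few hosted snoRNAs with a summit nearby lay close to the host's start site and shared its summit. Of 247 hosted snoRNA genes 15 had an IDR summit within 500 bp (6.07%, 3.44 to 9.82), and for 13 of these every such summit also lay within 500 bp of a host TSS. The strongest of these shared summits lay 3 to 60 bp from the host TSS (median 18) but 92 to 491 bp from the snoRNA (median 196). Among 86 snoRNA genes up to 1000 bp from a host TSS, 14 had their own summit (16.3%) and 62 a host summit (72.1%). Among 161 farther than 1000 bp, 1 had its own summit (0.621%, 0.0157 to 3.41) while 112 had a host summit (69.6%, 61.8 to 76.6). For these 112 the nearest IDR summit of any kind was a median of 2024 bp away, close to their median distance of 2014.5 bp from the host TSS.

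The same contrast was seen per length of sequence. Windows around host TSSs covered 138.86 kb and held 60 IDR summits, or 0.432 per kb. Windows of hosted snoRNAs, outside every host TSS window, covered 125.939 kb and held 2, or 0.0159 per kb. The rest of the host gene bodies held 26 in 758.807 kb, or 0.0343 per kb, near the 0.0329 per kb of the whole arms. All protein-coding TSS windows held 0.159 per kb. In the pooled list the density was 1.00 per kb at host TSSs, 0.262 around hosted snoRNAs outside those windows and 0.260 in the rest of the host bodies. The replicates differed here: the candidates of replicate 1 gave 0.405 per kb around those snoRNAs and 0.256 in the rest of the bodies, and those of replicate 2 gave 0.302 and 0.270. In that list 27 of the 161 distant snoRNA genes had a candidate of their own (16.8%), with a median rank of 18014, and the strongest lay upstream of the snoRNA for 9, inside it for 4 and downstream for 14.

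The 2 hosted snoRNAs with a summit away from a host TSS were snoRNA:Or-CD4 and snoRNA:gcl-a. snoRNA:Or-CD4 is the most distant RNA of Uhg5, a gene on 2R (14621601 to 14624498, plus strand). Its summit, at 14624691 with signal 216 (rank 1217 in replicate 1 and 1949 in replicate 2), lay 361 bp past the snoRNA and 3090 bp from the Uhg5 TSS, beyond the annotated end of the gene. The summit of snoRNA:gcl-a lay 47 bp upstream of the snoRNA and 600 bp past the TSS of gcl, a gene needed to form germ cells in the embryo. Its signal was 147, near the lowest of the IDR list, at ranks 3420 and 6471 in replicates 1 and 2.

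By class of host, the share was highest for ribosomal protein genes. Bound were 25 of 28 ribosomal protein hosts (89.3%, 71.8 to 97.7), against 75.4% of ribosomal protein genes that hold no snoRNA, a value inside that interval. Other protein-coding hosts were bound in 23 of 54 cases (42.6%, 29.2 to 56.8), against 20% of other protein-coding genes without a snoRNA. Of the noncoding hosts 4 of 10 were bound (40%, 12.2 to 73.8), against 6.43% of ncRNA genes without a snoRNA. For the last 2 classes the background lay below the interval. With pooled candidates the counts were 26 of 28 ribosomal protein hosts against 86.2% of such genes without a snoRNA, 47 of 54 other protein-coding hosts against 55.0%, and 7 of 10 noncoding hosts against 30%.

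**Figure D2:**
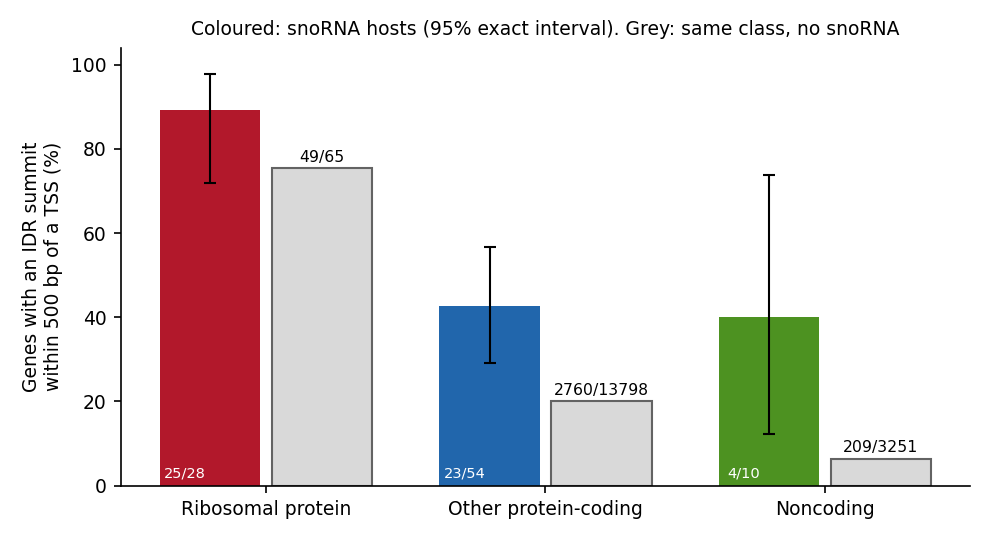
Share of genes with an IDR summit within 500 bp of a TSS (y axis, percent) for ribosomal protein, other protein-coding and noncoding genes. Coloured bars are snoRNA hosts with exact 95% intervals, grey bars are genes of the class without a snoRNA, and the fractions give bound genes over genes counted. Coloured bars stand at 89.3, 42.6 and 40%, grey bars at 75.4, 20 and 6.43%.

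A gene with more start sites has more windows in which a summit can fall, so hosts were also counted by their number of TSSs. Hosts with 1 TSS were bound in 23 of 47 cases (48.9%), against 15.2% of 10246 protein-coding genes with 1 TSS. Hosts with 2 or more were bound in 29 of 45 cases (64.4%), against 35.0% of 3699 such protein-coding genes. The hosts counted in this way include the 10 noncoding ones, while the genes beside them are protein-coding only. Hosts that hold 1 snoRNA were bound in 23 of 55 cases (41.8%, 28.7 to 55.9), those with 2 to 4 in 18 of 23 (78.3%, 56.3 to 92.5) and those with 5 or more in 11 of 14 (78.6%, 49.2 to 95.3). The counts by number of TSSs and of snoRNAs were not split by class of host. Ribosomal protein genes without a snoRNA were bound in 75.4% of cases, so a relation with the number of snoRNAs apart from class was not tested. The 11 bound hosts of 5 or more hold 102 snoRNA genes, so a few genes carry much of the count over RNAs. Bound hosts were found on every arm: 7 of 15 on 2L, 15 of 23 on 2R, 9 of 22 on 3L, 13 of 21 on 3R, 1 of 1 on 4 and 7 of 10 on X. The bound share of all genes on each arm is not given here, so the arms are not compared.

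The share in bound hosts lay close together for the kinds of guide RNA. By symbol, 87 genes are 2′-O-methylation guides, 112 are pseudouridylation guides and 70 have other names, 16 of the 269 being scaRNAs, the small Cajal body RNAs that guide changes of spliceosomal RNA. Of hosted methylation guides 55 of 82 lay in a bound host (67.1%, 55.8 to 77.1), of hosted pseudouridylation guides 77 of 107 (72%, 62.5 to 80.2) and of the others 42 of 58 (72.4%, 59.1 to 83.3). Counted over distinct hosts these were 25 of 41, 22 of 33 and 20 of 36. The intervals overlap, and guides of different kinds often share a host. Own summits were found for 4 of 87 (4.60%), 8 of 112 (7.14%) and 11 of 70 (15.7%). These counts were not split by having a host, which 82 of the 87, 107 of the 112 and 58 of the 70 had. Over all kinds, own summits were found for 36.4% of genes without a host and 6.07% of those with one.

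At the bound hosts the summit lay close to the start of transcription. Counted from the TSS, with negative values upstream, its median position was -18.5 bp (quartiles -45 and -1.75 bp), with 40 summits upstream, 11 downstream and 1 at the TSS. Within 100 bp of the TSS lay 43 of 52 summits (82.7%), against 55.6% of those of 2809 other bound protein-coding genes. The median distance was 29 bp at hosts and 80 bp at those other genes. Signal had a median of 351 at bound hosts, against 207 at the other bound protein-coding genes, and peaks were 290 bp wide at the median, against 376 bp. At those other genes 376 bp was also the upper quartile, so many peaks share exactly this width. The widths are therefore not read as narrower binding at hosts. Ribosomal protein hosts had a median signal of 537, other protein-coding hosts 224 and noncoding hosts 213, while bound ribosomal protein genes without a snoRNA had 460.

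Among the ribosomal protein hosts, RpL14 was strongest. It encodes a protein of the large ribosomal subunit, lies on 3L (8601006 to 8602392, plus strand) and holds both snoRNA:U49 genes of that locus. Its signal was 1225 in the pooled list, 444 in replicate 1 (rank 32) and 760 in replicate 2 (rank 44). The peak of RpL13A (3R, 5624474 to 5625947, plus strand) had signal 1062, with 405 in replicate 1 (rank 38) and 647 in replicate 2 (rank 64). That of RpS4, of the small subunit (3L, 13041756 to 13044234, plus strand), had signal 1056, with 519 in replicate 1 (rank 22) and 539 in replicate 2 (rank 115), 6 bp upstream of the TSS. RpL30 reached 875 (ranks 69 and 102 in replicates 1 and 2), and RpL28, which carries 5 snoRNAs, 841 (ranks 33 and 168). All 5 peaks stood among the strongest 200 of each replicate.

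RpL11 had a signal of 746 (ranks 96 and 180 in replicates 1 and 2) and RpS16, with 5 snoRNAs, 687 (ranks 68 and 267). RpS3A, the only host on 4, had 661 (ranks 92 and 295), RpL27A 629 (ranks 67 and 453) and RpL4 601 (ranks 88 and 388). Each of these 5 ranked higher in replicate 1 than in replicate 2. RpS5a, on X (17143588 to 17148264, minus strand), holds 14 snoRNAs and had a signal of 468, with its summit 45 bp upstream of a TSS. It ranked 233 and 508 in replicates 1 and 2. RpS7, with 7 snoRNAs, had 493 (ranks 236 and 434), 2 bp upstream of a TSS. The 3 ribosomal protein hosts without an IDR summit were RpS9, RpL5 and RpL15. RpS9 had a pooled candidate of signal 131 at rank 4887, 43 bp past a TSS. RpL5 (2L, from 22532279) and RpL15 (3L, from 27267255) lie beyond the last pooled candidate of their arms, which end at 22175465 on 2L and 23095670 on 3L. They were the 2 hosts with every TSS outside the stretch that holds candidates, as were 127 protein-coding genes, so the lists hold no call there for or against binding.

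Among the noncoding hosts the values ran from no candidate to the strongest peak of any host. Uhg4, on 2R (9095273 to 9097312, plus strand), carries 7 snoRNAs and had the strongest host peak, with signal 1307, 36 bp upstream of its TSS. The signal was 480 in replicate 1 (rank 27) and 848 in replicate 2 (rank 37), so it stood among the strongest peaks of both. Uhg1, with 16 snoRNAs, had 181 (63 at rank 2802 in replicate 1 and 117 at rank 3114 in replicate 2), 12 bp upstream. Uhg5, with 11, had 187 (ranks 968 and 4898), 15 bp upstream, and Uhg2, with 4, had 239 (ranks 2684 and 1535), 60 bp upstream. Uhg3 (3 snoRNAs) and Uhg8 (3) had pooled candidates only, of signal 99.2 and 83.8. Uhg7 (4) and lncRNA:CR45184 (5) had none. lncRNA:CR45184 lies inside the span of Sf3b3, a splicing factor gene that was bound with signal 167, 49 bp past its TSS.

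Among the other protein-coding hosts the strongest peak was at Stt3A, the catalytic subunit of oligosaccharyltransferase, with signal 610. That summit lay 396 bp upstream of Stt3A but 213 bp from the TSS of bves, so it cannot be assigned to the host. Its rank was 152 in replicate 2 but 722 in replicate 1. The hosts with many snoRNAs in this class had modest signal. dom, a chromatin remodelling ATPase with 15 snoRNAs, had 176 (ranks 1284 and 2809 in replicates 1 and 2), 20 bp upstream of its TSS. kra, a regulator of translation with 8 snoRNAs, had 2 IDR summits, the stronger of 224 (ranks 834 and 2883). Nop60B, the pseudouridine synthase itself, holds 7 snoRNAs and had 182 (ranks 2106 and 3244), 17 bp upstream. Hrb98DE, an RNA-binding hnRNP protein, also holds 7 and had 149 (ranks 1671 and 4714), 31 bp upstream.

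The host with the most snoRNAs was not bound. Arpc2, a subunit of the actin-nucleating Arp2/3 complex, lies on 2L (20417057 to 20423027, plus strand) and holds 17 snoRNA genes. Its strongest candidate near a TSS lay 347 bp downstream, with signal 63.6 at pooled rank 13647, 22.4 in replicate 1 (rank 16707) and 47.1 in replicate 2 (rank 12679). CG10576, with 5 snoRNAs, had a candidate of 88.7 (pooled rank 8784). In all, 28 hosts had a pooled candidate without an IDR summit, with signal from 51.9 to 138 (median 88.4), and 12 had no candidate. The lowest signal of the IDR list was 138.59, and several hosts lay at that border. tou (143.6) and Hrb98DE (149.1) were just inside it, and CG3902 (138.4), anchor (138.1), Dys (137.6) and nop5 (137.1) just outside.

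**Figure D3:**
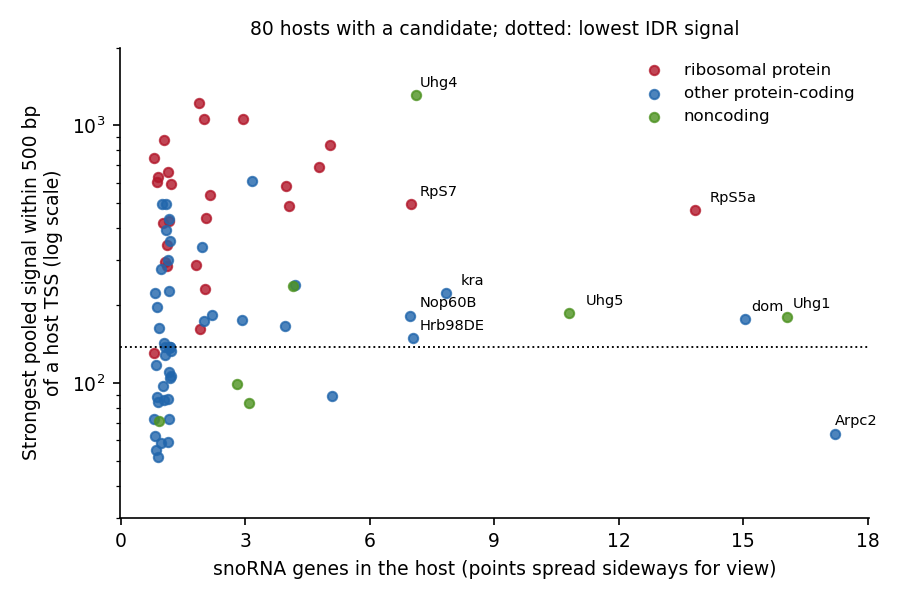
Strongest pooled signal within 500 bp of a host TSS (y axis, log scale) against the number of snoRNA genes in the host (x axis) for the 80 hosts with a candidate. Each point is 1 host, shifted slightly sideways for view and coloured by class, and the dotted line is the lowest IDR signal, 138.59. Uhg4 reaches 1307 with 7 snoRNAs, while Arpc2, with 17, lies below the line at 63.6.

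The maps of 6 hosts show where the RNAs lie along the gene. In RpS5a the snoRNAs lay 447 to 3138 bp from the nearest TSS, in dom 1788 to 10715 bp, in kra 796 to 3233 bp and in Arpc2 1258 to 4838 bp. That TSS is not always the one with the summit. Counted from the most upstream TSS, it lay at 1058 bp in RpS5a and 1563 bp in kra. The IDR summits lay at -45 bp in RpS5a and at -11 and 540 bp in kra, and the RNAs began at 1505 and 2359 bp. Arpc2 had no IDR summit. In Uhg4 they began 99 bp and in Uhg1 111 bp from the TSS and ran to 1757 and 4005 bp, so that a window of 500 bp around the nearest RNA reached the start-site summit. Inside none of the 6 genes did an IDR summit lie beyond 500 bp of every TSS. Over all 92 hosts 12 had such a summit. The share of other genes with one is not given here, and hosts were 566 to 136204 bp long, so this count is not shown to be particular to hosts.

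**Figure D4:**
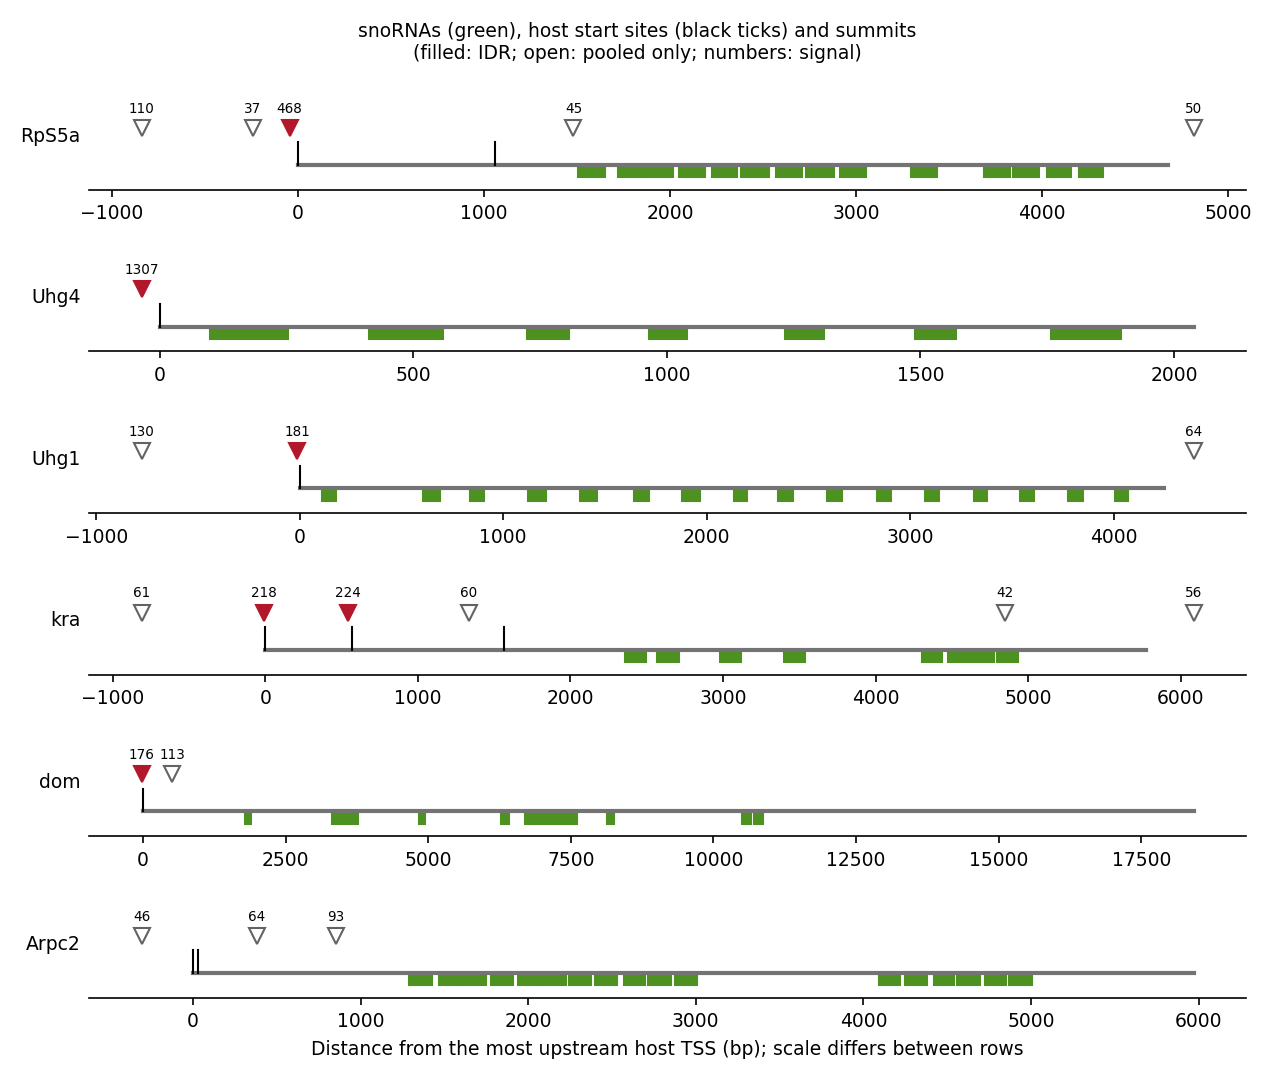
Maps of RpS5a, Uhg4, Uhg1, kra, dom and Arpc2 drawn along the gene's strand, with distance in bp from the most upstream TSS on the x axis and a scale of its own for each gene. Black ticks are TSSs, green boxes snoRNA genes, filled triangles IDR summits and open triangles pooled candidates, each with its pooled signal. The filled triangles stand at start sites and none stands over a green box, and Arpc2 has open triangles only.

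The peaks at bound hosts were followed in each replicate. All 52 were overlapped by a candidate in each, which is largely given by construction because the IDR list is derived from both. The share of all IDR peaks overlapped in this way is not given here. Among the strongest 4410 candidates of each replicate were 51 of 52 in replicate 1, against 71.7% of all IDR peaks, and 48 of 52 in replicate 2, against 85.2%. In both lists together were 47 (90.4%), against 59.9%. Median ranks were 651 in replicate 1 and 739.5 in replicate 2, and 39 of the 52 ranked higher in replicate 1. The share of all IDR peaks that ranked higher there is not given, so this is not shown to be particular to hosts. A host TSS had a candidate for 78 of 92 hosts in replicate 1, against 54.2% of protein-coding genes, and for 81 of 92 in replicate 2, against 55.8%.

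**Figure D5:**
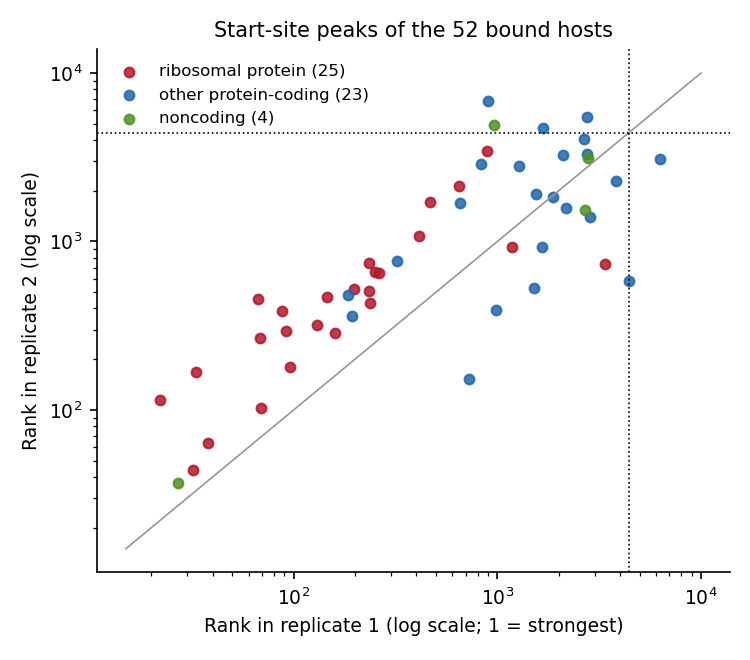
Rank of the start-site peak in replicate 2 (y axis, log scale) against its rank in replicate 1 (x axis, log scale) for the 52 bound hosts, where 1 is the strongest and colours give the class of host. The solid line marks equal rank and the dotted lines rank 4410. Of the points, 39 lie above the line, with a higher rank number in replicate 2, and 47 lie within both dotted lines.

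Some summits of bound hosts are shared with a neighbour. The same counts over other bound genes are not given here, so sharing is not shown to be particular to hosts. Of 52 bound hosts 23 had a summit that also lay within 500 bp of a TSS of another gene that is not a snoRNA, for 21 of them on the opposite strand. The other gene was nearer in 6: bves at Stt3A, CalpA at hts, trbd at dmt, CG17271 at RpS20, CR33222 at RpS6 and eRF3 at SC35. These pairs were picked for that distance after their values were seen. Which gene such a summit belongs to cannot be told apart.

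snoRNA genes without a host had a summit nearby more often than those inside hosts. An IDR summit lay within 500 bp of 8 of 22 (36.4%, 17.2 to 59.3), against 15 of 247 hosted ones (6.07%, 3.44 to 9.82). With pooled candidates these were 17 of 22 (77.3%, 54.6 to 92.2) and 64 of 247 (25.9%, 20.6 to 31.8). The intervals did not overlap, but they take genes as independent. Among the 8, snoRNA:Psi28S-1153 and its tandem neighbours share a single summit. The strongest IDR summit lay upstream of the snoRNA in all 8, and the strongest pooled candidate upstream in 13 of 17, downstream in 4 and inside in 0. A TSS of another gene lay within 500 bp of the summit for 5 of the 8 and not for the other 3. Of the 22, 10 lie inside a gene of the other strand.

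The strongest was snoRNA:U3:9B (X, 10348125 to 10348337, plus strand), a copy of the U3 RNA. Its summit, at 10348045, lay 80 bp upstream of its 5′ end with signal 353, at 123 in replicate 1 (rank 616) and 198 in replicate 2 (rank 1085), and no TSS of a gene other than snoRNAs was annotated within 14 kb. A further IDR summit lay inside the RNA. The 120 bases that end where the RNA begins, at chrX:10348005-10348124 on the plus strand, hold that upstream summit and are shown from the RefSeq genome.
upstream of snoRNA:U3:9B: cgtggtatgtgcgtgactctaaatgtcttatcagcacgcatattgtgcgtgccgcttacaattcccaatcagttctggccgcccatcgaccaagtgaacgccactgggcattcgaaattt
The other U3 copies, snoRNA:U3:54Aa and snoRNA:U3:54Ab, had pooled candidates only, of 43.2 at 54 bp and 109 at 274 bp upstream. Copies with near-identical sequence can share or lose reads, and the sources used here do not say how such reads were placed. snoRNA:Psi18S-301 on 3R had a signal of 169 at 106 bp upstream (ranks 3423 and 3179 in replicates 1 and 2), with the nearest such TSS, of TFAM, 2210 bp away.

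The other 6 of these lie on 2R. snoRNA:Psi28S-1153 and 2 genes named only by a position stand in tandem and share a summit of signal 252 (ranks 742 and 2325 in replicates 1 and 2), 39 bp upstream of the nearest and 408 bp upstream of snoRNA:Psi28S-1153. snoRNA:Or-ACA6, inside egr but on its other strand, had 275 at 387 bp upstream (ranks 686 and 1960). snoRNA:185 had 261 at 221 bp upstream (ranks 1794 and 1421), with tRNA:Glu-TTC-1-5 158 bp from the summit. snoRNA:Psi18S-176 had 160 at 59 bp upstream, at rank 8635 in replicate 1 and 3036 in replicate 2, so it stood among the strongest 4410 of replicate 2 but not of replicate 1.

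Genes for the proteins that work with snoRNAs were looked up as a list of 33, of which 32 were found, 2 by a synonym, and 29 are not hosts. IDR summits were at 10 of these 29 and pooled candidates at 25, against 20.5% and 55.4% of protein-coding genes. In the box C/D core Fib, fibrillarin and itself a host, had signal 278, and Nop56 had 176. nop5, also a host, and hoip had candidates below the IDR list (137 and 121). In the box H/ACA core Nop10 had 255, Nop60B 182 and NHP2 171, while Gar1 had a weak candidate of 35.0. The NHP2 peak ranked 26868 in replicate 1 and 1962 in replicate 2.

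Assembly and Cajal body factors were bound in 3 of 7 cases, with 291 at the nucleolar chaperone Nopp140, 235 at the AAA+ ATPase pont and 179 at its partner rept. In replicate 1 the peaks of pont and rept ranked 9516 and 8750, outside its strongest 4410, against 783 and 2274 in replicate 2, while Nopp140 ranked 1018 and 1275. Of the exosome, which trims the ends of the RNAs, 4 of 11 were bound. These were the nucleases Rrp6 (217) and Dis3 (164) and the subunits Csl4 (205) and Rrp42 (152), of which Rrp42 ranked 6123 in replicate 1 and 2732 in replicate 2. Of 6 genes of the small subunit processome, in which U3 works, 0 had an IDR summit and 5 a pooled candidate, the highest of 132 at l(3)72Dn.

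Sequence words were counted in promoters, from 250 bases upstream to 50 downstream of the most upstream TSS, on both strands. TATCGATA, the element known for the factor Dref, was in 12 of 52 bound hosts (23.1%), 6 of 40 unbound hosts (15%) and 9.36% of all protein-coding promoters, or 15.1% of those of bound protein-coding genes. Outside ribosomal protein hosts it was in 4 of 27 bound (14.8%) and 6 of 37 unbound (16.2%), so the order of the shares turned round there. Within ribosomal protein genes it was in 8 of 25 bound hosts (32%), 0 of 3 unbound hosts and 20 of 65 without a snoRNA (30.8%). CGATA, which TATCGATA contains and the insulator protein BEAF-32 is known to bind, was in 34 of 52 bound (65.4%), 24 of 40 unbound (60%) and 47.4% of all. Its share was 55.3% in bound protein-coding genes. Among ribosomal protein genes it was in 18 of 25 bound hosts (72%), 3 of 3 unbound hosts and 47 of 65 without a snoRNA (72.3%). CACGTG was in 6 of 52 (11.5%), 4 of 40 and 4.20%, and in 5.95% of bound protein-coding genes. GGTCACACT was in 5 of 52 (9.62%), 3 of 40 and 6.05%, and in 9.91% of bound protein-coding genes, close to the share of bound hosts. The letters of the initiator known from ribosomal protein genes, TCTTT, were sought within 10 bp of any TSS on the gene strand. TCTTT was in 17 of 52 bound hosts (32.7%), 5 of 40 unbound hosts (12.5%), 3.38% of all protein-coding genes and 5.64% of bound ones. It stands at the start site in RpL14, RpL13A and RpL28 above. Within ribosomal protein genes it was in 13 of 25 bound hosts (52%), in 3 of 3 unbound hosts and in 37 of 65 without a snoRNA (56.9%). In hosts of other classes it was in 4 of 27 bound (14.8%) and 2 of 37 unbound (5.41%). A match describes these letters only.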

How the data were processed

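Peak lists of CG7987 ChIP-seq in 2 embryo replicates were used. Per the labels they are on dm6. Candidate lists were deposited for each replicate and for the pool, called against 1 control alignment, with an IDR list derived from them. The aligner, peak caller, IDR threshold and library depth were not given in the sources used here. Deposited signal, without a stated scale, ranked peaks within a list. The deposited −log10 q-value was tied at 4.04 in all IDR peaks and ranked nothing. Summits came from the deposited offset in each peak. A replicate 1 peak off the arms was left out, which left 29999.

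Genes, TSSs and biotypes were from Ensembl 115 (BDGP 6.54) and sequences from RefSeq. Members and lists were chosen with earlier results of these data known. No test was run between groups, since there is 1 group. Counts are given with exact Clopper-Pearson 95% intervals. Named hosts were the 12 of highest IDR signal, the 8 and the 5 unbound with the most snoRNAs, with ties. Also named were snoRNAs with a summit away from a host TSS or without a host, and up to 3 bound members of each protein group. Hosts at the border of the IDR list, unbound ribosomal protein hosts, pathway genes without an IDR summit, Sf3b3, Uhg2, RpL10Ab and genes that only place a peak were named after their values were seen. Alternatives covered the window, TSS set, host rule, peak overlap, stronger peaks and each replicate. Of 40 summits planted in simulated lists, 40 were placed as planted. Python 3.11.15, numpy 2.4.6, scipy 1.17.1 and matplotlib 3.10.9 were used.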

Additional observations from a re-analysis of the deposited data

How the results depend on the processing

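Of 47 recomputed counts 38 stayed within 1.5 times the value reported. The 52 bound hosts became 49 with a window of 250 bp, 58 with 1000 bp, 45 at the most upstream TSS, 56 by any overlap of the peak and 39 in the 2205 strongest IDR peaks, while the bound share of protein-coding genes was 17.4, 23.5, 18.3, 21.7 and 10.9%. Without 1 replicate, by the 4410 strongest candidates of the other, bound hosts ranged from 51 to 59 and snoRNAs in bound hosts from 155 to 181. By the same cut snoRNAs with their own summit ranged from 24 to 25 and distant ones from 1 to 3. By all candidates of the other replicate, hosts with a candidate ranged from 78 to 81 and snoRNAs with a candidate of their own from 87 to 105. The bound share of protein-coding genes was 20.6% without replicate 1 and 19.7% without replicate 2, and their share with a candidate 55.8 and 54.2%. The count of 3 distant snoRNAs was that without replicate 1. The other counts that moved were the 174 snoRNAs in bound hosts, which became 102 in the stronger peaks, the 23 with their own summit (15 at 250 bp, 69 at 1000 bp), the 1 distant snoRNA (0 at 250 bp, 11 at 1000 bp, 3 by overlap) and the 81 with their own candidate (52 at 250 bp, 156 at 1000 bp). A wider window around a snoRNA reaches more host TSSs by construction. No paired analysis was possible because there is 1 group.

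Depth is unknown, so a missing peak is not shown to be an absence of binding. Signal has no stated scale, replicates are 2, and neighbouring genes share summits.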
